A study of Mus musculus with 30 samples.

Results

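Imiquimod-treated wild-type mice gave 3 spleen libraries and 4 lymph node libraries, and the genes whose level set those organs apart are described here. These 7 libraries are all those of the 30 in the series whose labels give the WT genotype and the agent imiquimod (a small molecule that activates TLR7, Toll-like receptor 7, and is used here to model lupus); the titles name the WT mice FVB, after an inbred strain. Poly(A)-enriched RNA was sequenced from frozen organs, so that all cell types that entered the extract are mixed in a library. Besides these, 3 spleens of WT control mice (naive in the source label) and the imiquimod-treated spleens (3) and lymph nodes (4) of Pad2-/- mice, which lack the peptidylarginine deiminase Padi2, were read beside them. The labels say neither which lymph node was taken nor whether each library is a different animal, and the lymph node libraries are all from treated mice. The extract protocol speaks only of imiquimod-treated mice, and the agent labels were followed for the controls. The labels give every spleen library 1 run code and every lymph node library another, and each organ was deposited as its own table. Organ and run therefore cannot be told apart, no test of the organ is possible, and only large differences are described, by level and by rank within a library.

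The spleen filters blood in its red pulp and holds B and T cells in its white pulp, and in the adult mouse it can also form red cells, granulocytes and platelets under inflammatory or haematopoietic stress. A lymph node filters lymph and receives dendritic cells from the tissue it drains. Lymphocytes enter it from blood through high endothelial venules and are guided by chemokines made by a network of fibroblastic reticular cells. Both organs hold B and T cells, and they differ in blood-forming cells, vessels and stroma.

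Levels are RPKM (read numbers divided by transcript length and by the mapped reads of the library), so that genes can be compared within a library. The libraries had 11125 to 11332 genes at 1 RPKM or more in spleen and 11996 to 12051 in lymph node, out of 24957 genes in each table; read depth is unknown. The rank correlation of genes (Spearman) was taken over all 24957 genes, which are not independent and include those at or near 0. It was 0.963 to 0.967 between spleens, 0.973 to 0.977 between lymph nodes and 0.920 to 0.934 across the organs. For the differences, genes were kept where at least 3 of the 7 libraries reached 1 RPKM, which left 12286 genes. Differences are spleen minus lymph node in mean log2(RPKM + 0.5), with the standard error from the spread between libraries after ±. Their median over the kept genes was 0.05, and 82.5% of the genes differed by less than 2-fold. RPKM is relative to all other transcripts of a library, and haemoglobin alone took 1.77%, 2.26% and 6.85% of the summed RPKM in the spleens, against 0.375%, 0.803%, 0.149% and 0.560% in the lymph nodes.

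A gene was called where the organs were at least 8-fold apart and no spleen library overlapped a lymph node library in RPKM or in rank. By this rule 141 genes were higher in spleen, 1.15% of those kept, and 226 were higher in lymph node, 1.84%. The condition on overlap removed 0 genes that the fold had called. How many of all kept genes do not overlap, at any fold, was not counted. These counts depend on the pseudocount: at 0.1 they were 194 in spleen and 505 in lymph node, and at 1 they were 111 in spleen and 118 in lymph node. Without a filter on low values the counts were the same, 141 and 226. Without spleen replicates 1, 2 and 3 the spleen count was 167, 138 and 112 over the same kept genes. It was 92, 75 and 63 when the filter was reapplied to the libraries left, since a gene low in lymph node then cannot reach 1 RPKM in 3 libraries. At the edge of the rule, Trem1 stood just inside at 3.002 and Siglece just outside at 2.988 on the spleen side. On the lymph node side Cdh5 stood just inside at -3.003 and Htra3 just outside at -2.997. The genes higher in spleen had a median of 26.9 RPKM in spleen and of 0.786 RPKM in lymph node, and their median rank (1 is the most abundant gene) was 2929 in spleen and 12629 in lymph node. The genes higher in lymph node had a median of 0.129 RPKM in spleen and of 9.93 RPKM in lymph node. Of them, 179 were under 1 RPKM in every spleen library, while 66 of the 141 spleen genes were under 1 RPKM in every lymph node library.

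**Figure D1:**
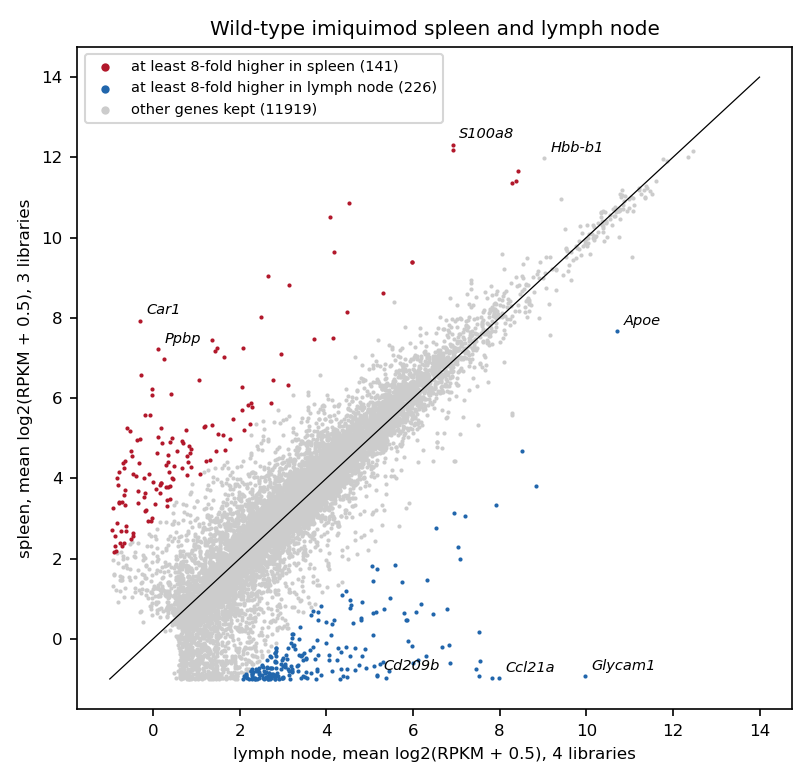
Mean log2(RPKM + 0.5) of each kept gene in 3 wild-type imiquimod spleens (vertical axis) and 4 wild-type imiquimod lymph nodes (horizontal axis); red points are the 141 genes at least 8-fold higher in spleen, blue points the 226 at least 8-fold higher in lymph node, and the line marks equal levels. Most blue points lie along the bottom, where spleen levels are near 0, and the red points reach far up the scale with S100a8 the highest of them.

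The genes higher in spleen included many of maturing red cells, neutrophils and platelets. Of the 141 genes, 30 are in the erythroid or haemoglobin lists, 23 in the lists of neutrophils and their precursors and 10 in the megakaryocyte and platelet list, 63 in all. The list of haematopoietic progenitors did not separate the organs: 0 of its 9 kept genes were called, 5 had the higher mean in spleen and 4 in lymph node, and their median of 0.52 was -0.90 with the filter at 5 RPKM. Its summed level was 39.6, 48.4 and 55.2 RPKM in the spleens and 54.5, 53.7, 56.5 and 57.6 RPKM in the lymph nodes. In bulk RNA more cells of a type and more RNA per cell cannot be told apart, so these are levels of transcripts and not counts of cells.

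Neutrophil granule genes were higher in spleen almost throughout. Of the 15 genes of the granule precursor list, 14 were called higher in spleen and 0 in lymph node, with a median difference of 5.69, against 0.05 for all genes. Camp, which encodes the antimicrobial cathelicidin, was at 676, 2778 and 1626 RPKM in the spleens and at 16.8, 9.34, 34.0 and 13.2 RPKM in the lymph nodes, a difference of 6.43 ± 0.71. Ngp, a granule protein of immature neutrophils, was at 870, 3431 and 2194 RPKM in the spleens and at 22.2, 15.6, 45.4 and 16.1 RPKM in the lymph nodes (6.35 ± 0.68). For both genes the lowest spleen stood far above the highest lymph node, with replicate 2 the highest of the spleens and replicate 3 the highest of the lymph nodes. Primary granule genes, which are transcribed at the promyelocyte stage and not in mature neutrophils, went the same way. The serine protease gene Prtn3 was at 82.3, 422 and 151 RPKM in the spleens and at 1.6, 1.32, 4.26 and 1.82 RPKM in the lymph nodes (6.10 ± 0.75). Mpo, myeloperoxidase, was at 74.4, 270 and 145 RPKM in the spleens and at 2.34, 1.11, 5.45 and 1.49 RPKM in the lymph nodes (5.72 ± 0.68). Both genes were called, which requires that the groups do not overlap. Among the others, Chil3 differed by 6.39, the elastase gene Elane by 5.77, the lactoferrin gene Ltf by 5.70, the lipocalin gene Lcn2 by 5.47 and haptoglobin (Hp) by 3.77. The gene of the list that was not called, Serpinb1a, differed by 0.87.

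The mature neutrophil list had 9 of 15 genes called higher in spleen and a median of 3.49. S100a8 and S100a9 encode the calprotectin subunits that fill the neutrophil cytosol. S100a8 was at 2303, 11741 and 4900 RPKM in the spleens, where it ranked 12th, first and 5th of all genes, and at 85.2, 138, 263 and 69.3 RPKM in the lymph nodes, where its median rank was 492. That is a 45.5-fold ratio of the mean levels, spleen over lymph node, and a difference of 5.39 ± 0.80. S100a9 followed it closely at 2143, 10064 and 4740 RPKM in the spleens and 84.3, 136, 267 and 69.1 RPKM in the lymph nodes (5.27 ± 0.78). The surface marker Ly6g was at 15.7, 76.3 and 39.9 RPKM in the spleens and at 0.958, 1.12, 2.19 and 0.766 RPKM in the lymph nodes (4.45 ± 0.69). Trem3, a receptor of myeloid cells, differed by 4.17. Receptors of circulating neutrophils differed less and were not called: Csf3r, the receptor for granulocyte colony-stimulating factor, by 1.88 and the chemokine receptor Cxcr2 by 1.174. The summed level of the mature list was 4697, 22919 and 10217 RPKM in the spleens, against 223, 342, 636 and 179 RPKM in the lymph nodes. The spread among spleens was wide, with replicate 2 at more than the other spleens together.

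Padi4, the peptidylarginine deiminase of neutrophils and a target of the study's knockouts, lies on chromosome 4 (GRCm38, 140745508 to 140774239) and was among the genes higher in spleen. It was at 8.16, 25.3 and 16.9 RPKM in the spleens and at 0.952, 0.869, 1.05 and 0.679 RPKM in the lymph nodes, a difference of 3.51 ± 0.47. Its order across the spleens, replicate 2 above 3 above 1, was that of the neutrophil genes named above. Padi4 is itself in the mature neutrophil list, and an order of 3 libraries can match by chance. Padi2, an enzyme of the same family, was at 5.23, 4.74 and 5.15 RPKM in the spleens and at 5.18, 5.52, 5.33 and 5.77 RPKM in the lymph nodes (-0.10 ± 0.05). The organs overlapped for Padi2.

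Red cell genes formed the second group. Of the 30 genes of the erythroid list 25 were called higher in spleen, all 30 had the higher mean in spleen, and the median difference was 4.32. Car1, the carbonic anhydrase of red cells, stood furthest apart on the spleen side. It was at 234, 176 and 350 RPKM in the spleens and at 0.273, 0.220, 0.857 and 0.0801 RPKM in the lymph nodes, a difference of 8.23 ± 0.39. Klf1, a transcription factor that directs red cell maturation, was at 98.8, 50.1 and 170 RPKM in the spleens and at 0.507, 0.239, 0.409 and 0.163 RPKM in the lymph nodes (6.86 ± 0.53). Slc4a1, the anion exchanger of the red cell membrane, was at 66.1, 74.5 and 407 RPKM in the spleens and at 1.83, 0.625, 0.608 and 0.205 RPKM in the lymph nodes (6.73 ± 0.92). The organs were far apart for each of them, and spleen replicate 3 was the highest, unlike for the neutrophil genes. The blood group and membrane genes Rhd (6.25) and Rhag (5.73) and the claudin gene Cldn13 (6.11) were also among the 15 largest differences. Genes of earlier erythroid steps were called too, among them Gata1 (4.28) and Tal1 (4.52), which encode transcription factors of red cell and megakaryocyte precursors, and Epor (3.85), the erythropoietin receptor. The receptor for iron-loaded transferrin, Tfrc, differed by 3.15. Gata1, Tal1, Epor, Tfrc and Alas2, like Serpinb1a, Csf3r and Cxcr2 above, were chosen after their values were seen.

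Sequences upstream of these genes are shown because the red cell genes move together and because GATA and CACCC sites are the classical elements of erythroid promoters, bound by GATA1 and KLF1. RefSeq promoter windows of GRCm38.p6 (250 bases before to 50 after the start) were found for 21 of the 30 called erythroid and haemoglobin genes. AGATAA, on either strand, was present in 10 of their 24 windows, or 41.7%, against 11.2% of the 32851 windows of all genes. CACACCC, on either strand, was in 5 of the 24, or 20.8%, against 7.95% of all windows. Among called neutrophil genes AGATAA was in 3 of 20 windows (15%), and among called stromal genes of the lymph node in 1 of 11 (9.09%). These shares describe letters in a window, on few genes, and not binding. The windows of Rhd (chr4:134864286-134864585, plus strand), Epor (chr9:21963527-21963826, minus strand), Alas2 (chrX:150547167-150547466, plus strand), which encodes the erythroid enzyme that starts haem synthesis, Klf1 (chr8:84901732-84902031, plus strand) and the adult beta-globin gene Hbb-bs (chr7:103827879-103828178, minus strand) follow, each 5′ to 3′ on the strand of its gene. Capitals mark AGATAA or its reverse complement TTATCT, and CACACCC. Each window printed here holds a marked stretch, so that they do not stand for the whole set. The windows of Add2, Ermap, Hba-a1, Hba-a2, Hbb-bt, Rhag, Sptb and Tspo2 hold neither motif and are not printed.
Rhd: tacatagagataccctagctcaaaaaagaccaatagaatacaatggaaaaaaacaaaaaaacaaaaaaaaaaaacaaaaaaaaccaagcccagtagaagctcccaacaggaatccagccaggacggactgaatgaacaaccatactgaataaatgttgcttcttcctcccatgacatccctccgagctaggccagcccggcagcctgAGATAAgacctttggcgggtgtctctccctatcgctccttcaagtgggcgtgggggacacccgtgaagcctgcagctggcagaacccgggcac
Epor: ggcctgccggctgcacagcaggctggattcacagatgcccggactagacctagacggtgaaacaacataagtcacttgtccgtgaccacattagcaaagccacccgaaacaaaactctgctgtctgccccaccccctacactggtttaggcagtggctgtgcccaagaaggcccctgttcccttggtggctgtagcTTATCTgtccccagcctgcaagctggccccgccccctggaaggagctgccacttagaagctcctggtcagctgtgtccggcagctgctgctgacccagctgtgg
Alas2: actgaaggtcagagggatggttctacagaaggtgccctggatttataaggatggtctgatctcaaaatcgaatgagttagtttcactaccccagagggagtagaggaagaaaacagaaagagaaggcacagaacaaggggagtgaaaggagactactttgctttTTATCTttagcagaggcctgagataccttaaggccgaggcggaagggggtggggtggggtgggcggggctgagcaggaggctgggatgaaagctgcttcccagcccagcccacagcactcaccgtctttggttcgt
Klf1: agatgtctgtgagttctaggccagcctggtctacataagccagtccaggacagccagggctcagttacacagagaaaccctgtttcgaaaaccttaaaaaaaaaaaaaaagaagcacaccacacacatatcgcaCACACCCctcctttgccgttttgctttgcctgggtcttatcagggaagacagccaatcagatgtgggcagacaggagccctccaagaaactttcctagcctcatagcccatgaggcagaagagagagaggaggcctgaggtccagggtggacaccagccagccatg
Hbb-bs: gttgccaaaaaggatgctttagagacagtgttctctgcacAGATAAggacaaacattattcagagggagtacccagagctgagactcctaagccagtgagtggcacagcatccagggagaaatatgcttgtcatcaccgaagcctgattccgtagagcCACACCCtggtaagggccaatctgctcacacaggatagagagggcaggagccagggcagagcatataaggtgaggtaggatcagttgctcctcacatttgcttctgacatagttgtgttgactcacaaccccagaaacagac
The Hbb-bs window holds AGATAA and CACACCC as spelled. In Rhd the marked AGATAA begins at -43 from the start. In Epor and Alas2 the marked letters are the reverse complement, TTATCT, and begin at -54 and -86. In Klf1 the marked letters are CACACCC. Other spellings of GATA and CACCC sites were not searched and may be in any of these windows.

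The kept haemoglobin genes had a median difference of 3.16, against 4.32 for the erythroid list, and the lymph nodes also held them at high levels. In Pad2-/- mice the order of these medians was the other way, at 5.88 for haemoglobin and 5.02 for the erythroid list. Of the 6 kept genes 5 were called. Hbb-b1 was at 2281, 3296 and 8672 RPKM in the spleens and at 506, 1029, 186 and 779 RPKM in the lymph nodes, which did not overlap, and at 2.94 ± 0.79 it stood just outside the 8-fold rule. Hba-a1 was at 1720, 2527 and 7973 RPKM in the spleens and at 260, 691, 142 and 553 RPKM in the lymph nodes (3.24 ± 0.84). Spleen replicate 3 decided these calls: without it the differences of Hba-a1, Hba-a2, Hbb-bs and Hbb-b2 were 2.59, 2.44, 2.46 and 2.74, and without lymph node replicate 3, the lowest, they were 2.81, 2.61, 2.58 and 2.90. Hbb-b2 and Hbb-bt held identical values in every library, and the reads of these near-identical genes, like those of Hba-a1 and Hba-a2, cannot be told apart. Embryonic genes were near 0: Hbb-y was listed at 0 in all 7 libraries, and Hbb-bh1 at 0.0804, 0.131 and 0.0752 RPKM in the spleens was listed at 0 in every lymph node. The haemoglobin of blood held in an organ and that of precursors in it are the same transcript, and their parts were not tested.

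Platelet genes made up the third group, with 10 of 17 kept genes called, or 58.8%, against 1.15% of all kept genes, and a median of 4.14. Ppbp, which encodes a chemokine stored in platelet granules, was at 65.6, 168 and 293 RPKM in the spleens and at 0.180, 0.551, 0.937 and 0.863 RPKM in the lymph nodes (7.09 ± 0.67). Gp9, a subunit of the platelet receptor for von Willebrand factor, was at 18.2, 36.9 and 77.7 RPKM in the spleens and at 0.0599, 0.141, 0.182 and 0.288 RPKM in the lymph nodes (5.84 ± 0.61). The spleens were ordered 1, 2, 3 from low to high for both genes, and none came near a lymph node. Gp1bb, of the same receptor, differed by 5.10 and Tubb1, the tubulin of the platelet rim, by 5.05. Among the members that were not called were Vwf (0.61) and Selp (0.96), which endothelium expresses too. Both were chosen after their values were seen, and the other members not called are not named here.

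Basophil and eosinophil genes were also among those higher in spleen, at lower levels. Mcpt8, a protease of basophils, was at 13.3, 47.6 and 43.8 RPKM in the spleens and at 0.203, 0.109, 0.726 and 0.199 RPKM in the lymph nodes (5.31 ± 0.62). Prss34, another basophil protease, was at 12, 42.8 and 31.3 RPKM in the spleens and at 0.0799, 0.0566, 0.425 and 0.315 RPKM in the lymph nodes (5.2 ± 0.57). Both were called, which requires that the organs do not overlap. The proteases of connective tissue mast cells went the other way: Mcpt4 was at 0.124, 0.215 and 0.232 RPKM in the spleens and at 9.61, 7.66, 13.8 and 11.6 RPKM in the lymph nodes (-3.99 ± 0.19), and Tpsb2 differed by -3.24. The eosinophil list had 3 of 6 kept genes called higher in spleen, or 50%, against 1.15% of all kept genes. Prg2, the granule major basic protein, was at 25.7, 48.1 and 6.87 RPKM in the spleens and at 2.26, 0.574, 1.89 and 0.816 RPKM in the lymph nodes (3.59 ± 0.87), and without spleen replicate 2 it stood at 2.99, just outside the rule. The ribonuclease genes Ear1 (4.06) and Ear2 (3.59) are close copies of each other, so that the share of each is uncertain.

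Monocyte and macrophage genes were mostly higher in spleen by smaller amounts. Of 18 genes 17 had the higher mean in spleen, with a median of 0.91, and 2 were called, or 11.1%, against 1.15% of all kept genes. The summed list was 2148, 7045 and 3763 RPKM in the spleens and 1557, 1444, 1542 and 1798 RPKM in the lymph nodes, with spleen replicate 2 the highest. Fcgr4, an activating Fc receptor, was at 230, 160 and 162 RPKM in the spleens and at 9.99, 31.4, 13.5 and 21 RPKM in the lymph nodes (3.35 ± 0.39). The other was F13a1, a coagulation factor subunit of monocytes (3.59). Of the 15 kept genes of the red pulp macrophage and iron recycling list, 2 were called, Tfrc and the integrin gene Itgad (3.47), and the median was 0.50. Spic, the transcription factor of red pulp macrophages, was at 16, 9.60 and 12.7 RPKM in the spleens and at 13.7, 13.8, 12.6 and 12.5 RPKM in the lymph nodes, so that this defining marker did not separate the organs. Mt2, a metallothionein, differed by 3.21, and by 2.82 without spleen replicate 3. The monocyte, red pulp and metallothionein genes named here without being among the largest differences, apart from Mt2, were chosen after their values were seen.

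Of the spleen genes in no list, 66 in number, several are known from the same cells. Cd177, a neutrophil surface protein, averaged 103 ± 63.4 RPKM in spleen and 1.74 ± 0.982 RPKM in lymph node (SD, n = 3 and 4), and Ifitm6 averaged 156 ± 107 RPKM in spleen and 2.71 ± 0.908 RPKM in lymph node. Pklr, the pyruvate kinase of red cells and liver, differed by 4.84, and Mpig6b, a platelet receptor, by 3.06. Erfe, the erythroid hormone that lowers hepcidin, averaged 9.25 ± 10.7 RPKM in spleen and 0.153 ± 0.113 RPKM in lymph node. These genes were chosen after their values were seen.

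**Figure D2:**
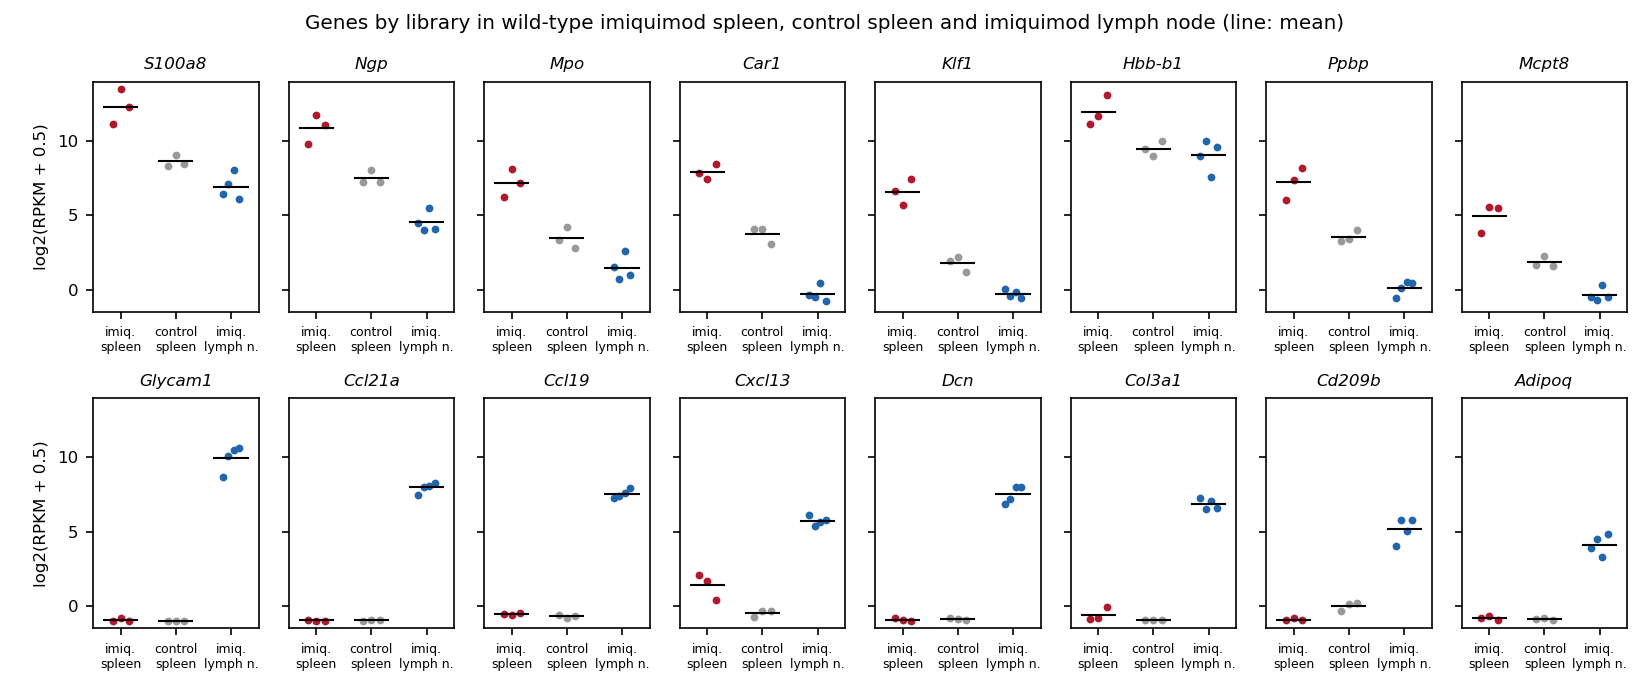
Level of 16 genes in each library as log2(RPKM + 0.5), with 3 imiquimod spleens, 3 control spleens and 4 imiquimod lymph nodes of wild-type mice from left to right in each panel; points are libraries and lines are means. In the upper row the imiquimod spleens stand highest and the control spleens lie between them and the lymph nodes, with overlap of control spleens and lymph nodes for Hbb-b1; in the lower row both kinds of spleen lie near the bottom and the lymph nodes far above.

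Control WT spleens, sequenced in the same run as the treated ones, lay between the treated spleens and the lymph nodes in the summed red cell and neutrophil granule genes. The 141 spleen genes had a median of 26.9 RPKM in imiquimod spleen, 2.06 RPKM in control spleen and 0.786 RPKM in lymph node. They were chosen for high levels in these imiquimod spleens and low levels in these lymph nodes. A control median between the other medians is therefore partly built in. Car1 was at 16.2, 16.2 and 8.0 RPKM in the control spleens, and S100a8 was at 322, 534 and 351 RPKM there, each between the treated spleens and the lymph nodes with no overlap. The summed erythroid list was 1336, 964 and 2921 RPKM in the imiquimod spleens, 142, 122 and 117 RPKM in the control spleens and 85.7, 84.8, 74.7 and 82.6 RPKM in the lymph nodes. The summed granule precursor list was 2796, 11526 and 6850 RPKM in the imiquimod spleens, 498, 831 and 498 RPKM in the control spleens and 116, 105, 205 and 120 RPKM in the lymph nodes. Whether the lymph nodes were also changed by imiquimod cannot be read, because no control lymph node is among the libraries used here.

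Cell division genes differed in the same direction by smaller amounts. All 20 genes of the mitotic list had the higher mean in spleen and 0 were called, with a median of 1.42, and 19 of 20 DNA replication genes were higher on average, with a median of 1.31. The summed mitotic list was 623, 589 and 742 RPKM in the imiquimod spleens, 49.1, 54.7 and 39.9 RPKM in the control spleens and 358, 265, 192 and 152 RPKM in the lymph nodes. For this list the lymph nodes, not the control spleens, stood next to the imiquimod spleens. Mki67, a protein of dividing cells, was at 55.2, 47.0 and 72.4 RPKM in the imiquimod spleens, 4.55, 5.02 and 3.87 RPKM in the control spleens and 27.9, 24.1, 17.2 and 11.3 RPKM in the lymph nodes.

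**Figure D3:**
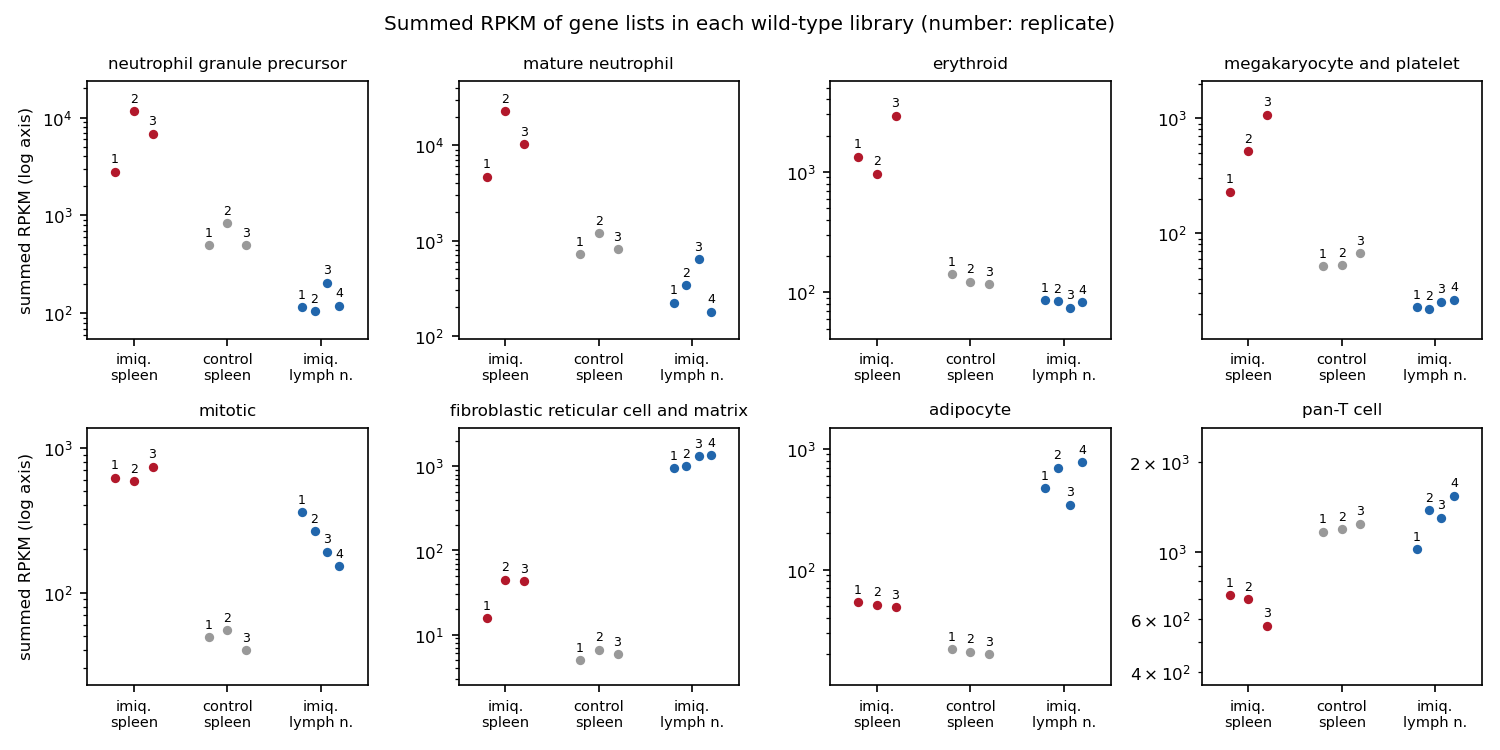
Summed RPKM of 8 gene lists in each wild-type library on log axes that differ between panels, with imiquimod spleens, control spleens and imiquimod lymph nodes from left to right and replicate numbers above the points. Spleen replicate 2 is highest for the neutrophil lists and replicate 3 for the erythroid and megakaryocyte lists, while the matrix and adipocyte sums lie highest in the lymph nodes.

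Many of the genes higher in lymph node belong to stroma and vessels and were close to 0 in spleen. Of the 226 genes, 51 are in at least 1 list, 30 of them in the stromal and vessel lists and 7 in the adipocyte list, and 175 are in none. In all, 73 were under 0.1 RPKM in every imiquimod spleen and 117 in every control spleen. Glycam1, which carries the L-selectin ligand of high endothelial venules (chromosome 15 of GRCm38, 103562759 to 103565081), stood furthest apart. It was at 0, 0.0798 and 0 RPKM in the spleens and at 415, 1076, 1461 and 1600 RPKM in the lymph nodes, and it was listed at 0 in all 3 control spleens. The difference of -10.91 ± 0.45 depends on the pseudocount. Its promoter window (chr15:103565032-103565331, minus strand) is shown as that of the largest difference on the lymph node side, and it holds neither AGATAA nor CACACCC, so that it has no capitals.
Glycam1: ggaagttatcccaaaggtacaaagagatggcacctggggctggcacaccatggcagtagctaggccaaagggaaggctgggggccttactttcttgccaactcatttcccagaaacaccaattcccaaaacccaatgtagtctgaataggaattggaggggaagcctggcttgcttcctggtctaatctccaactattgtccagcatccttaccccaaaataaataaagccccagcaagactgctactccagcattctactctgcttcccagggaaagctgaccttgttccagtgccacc
The list of high endothelial venules had 3 of 9 kept genes called higher in lymph node, or 33.3%, against 1.84% of all kept genes, and 0 called in spleen. Enpp2, the enzyme that makes lysophosphatidic acid at these venules, was at 1.06, 0.722 and 2.64 RPKM in the spleens and at 69.5, 64.3, 70.2 and 84.9 RPKM in the lymph nodes (-5.32 ± 0.42). Chst4, a sulfotransferase that completes the L-selectin ligand, was at 0.503, 0.0400 and 0.149 RPKM in the spleens and at 5.19, 9.29, 9.28 and 9.35 RPKM in the lymph nodes (-3.60 ± 0.33). The fucosyltransferase gene Fut7, which leukocytes express too, differed by -0.98 and Madcam1, also made in the spleen's marginal sinus, by -1.52. Gcnt1 (0.05) and Fut4 (0.34), enzymes found in many leukocytes, differed little, and Sele, a selectin of inflamed vessels, was at most 0.102 RPKM in the spleens and 0.120 RPKM in the lymph nodes.

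The chemokines that place lymphocytes were among the largest differences. Ccl21a, a ligand of Ccr7 made by reticular cells and lymphatic vessels, was at 0.0298, 0.000875 and 0.001 RPKM in the spleens and at 179, 260, 275 and 316 RPKM in the lymph nodes (-8.95 ± 0.18). Its near-identical copy Gm1987 differed by -8.80, and how reads were divided between them is uncertain. Ccl19, the other ligand of Ccr7, was at 0.187, 0.148 and 0.207 RPKM in the spleens and at 150, 168, 194 and 251 RPKM in the lymph nodes (-8.11 ± 0.16). The spleens were near 0 for both ligands. Cxcl12, the ligand of Cxcr4, differed by -6.60. Cxcl13, which draws B cells to follicles, was at 3.80, 2.75 and 0.849 RPKM in the spleens and at 69.1, 41.7, 50.6 and 55.6 RPKM in the lymph nodes (-4.34 ± 0.53), a 22-fold ratio of the mean levels, lymph node over spleen. All 4 chemokines were called, which requires that the organs do not overlap. The receptor Ccr7, chosen after its values were seen, differed less, by -1.64. Of the list of homing chemokines and oxysterol enzymes, 5 of 14 genes were called, all higher in lymph node, or 35.7%, against 1.84% of all kept genes.

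Reticular cell and matrix genes had the higher mean in lymph node in 17 of 18 cases, and 15 were called, with a median of -4.93. Dcn, the collagen-binding proteoglycan decorin, was at 0.0816, 0.0127 and 0 RPKM in the spleens and at 114, 149, 252 and 262 RPKM in the lymph nodes (-8.43 ± 0.30). Col3a1, the collagen of reticular fibres, was at 0.0353, 0.0623 and 0.470 RPKM in the spleens and at 156, 91.9, 133 and 94.6 RPKM in the lymph nodes (-7.45 ± 0.33). The spleens were near 0 for both, and the highest of them for Col3a1 was replicate 3. Mgp, a matrix protein that restrains calcification, differed by -6.98 and Col1a2 by -6.15. Of the 3 genes that were not called, the lymphotoxin receptor gene Ltbr differed by 0.44, the fibronectin gene Fn1 by -0.16 and the fibulin gene Fbln1 by -2.66; these 3 were named after their values were seen. Pdpn, the podoplanin of reticular and lymphatic cells, stood at -3.07, near the edge of the rule. Vessel wall genes were called in 5 of 7 cases, among them Rgs5 of pericytes (-5.43), Tagln (-5.40), Des (-4.78) and smooth muscle actin, Acta2 (-4.29). Of the 10 kept lymphatic endothelium genes 3 were called, or 30%, against 1.84% of all kept genes. Tbx1, which is not among the 3, was at 0, 0.0137 and 0 RPKM in the spleens and at 2.16, 2.62, 2.72 and 2.86 RPKM in the lymph nodes.

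Some complement genes were called on the same side. Of the 12 genes of the complement C1q and lysosomal list all had the higher mean in lymph node, with a median of -1.08. Of the 12, 2 were called, C4b (-4.87) and C2 (-5.24), or 16.7%, against 1.84% of all kept genes. Serping1, the inhibitor of the C1 proteases, was at 0.283, 0.337 and 1.69 RPKM in the spleens and at 134, 169, 221 and 226 RPKM in the lymph nodes (-7.35 ± 0.51). C1s1, a C1 protease, differed by -6.64; neither of these is in that list. The follicular dendritic cell list had 5 of 9 kept genes called higher in lymph node, among them Mfge8, a bridging protein for dying cells, at 4.21, 4.06 and 4.96 RPKM in the spleens and 163, 110, 129 and 130 RPKM in the lymph nodes (-4.76 ± 0.14). Its 1 gene called in spleen, Ltf, is also in the neutrophil list. Other large differences were Rarres2 (-6.88), the chemoattractant chemerin, the vitronectin gene Vtn (-6.34) and Serpina1b (-6.74), 1 of a family of near-identical protease inhibitor genes. Apoe, the apolipoprotein of macrophages and many other cells, was the most abundant gene called on this side, with 209 ± 59.1 RPKM in spleen and 1735 ± 491 RPKM in lymph node (-3.04 ± 0.31), and was chosen after its values were seen, as was C2.

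Among the lymph node genes in no list were further genes of matrix, endothelium and reticular cells, chosen after their values were seen. Bgn, the proteoglycan biglycan, averaged 1.44 ± 1.34 RPKM in spleen and 111 ± 19.2 RPKM in lymph node (SD, n = 3 and 4). Il33, an alarmin kept in the nuclei of stromal cells, averaged 0.0895 ± 0.0498 RPKM in spleen and 25.1 ± 2.61 RPKM in lymph node. The chemokine Ccl8 averaged 3.85 ± 2.30 RPKM in spleen and 137 ± 25.2 RPKM in lymph node, and Ccl11 was listed at 0 in every spleen and averaged 20.1 ± 6.06 RPKM in lymph node. The endothelial genes Emcn, Sox18 and Cldn5 differed by -3.87, -3.57 and -3.27.

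Genes of marginal zone and sinus macrophage receptors and of migratory dendritic cells were also higher in lymph node, unlike most of the monocyte and macrophage list. Cd209b, a C-type lectin of marginal zone and medullary macrophages, was at 0.0116, 0.0631 and 0.0109 RPKM in the imiquimod spleens and at 15.8, 55.6, 33.0 and 55.8 RPKM in the lymph nodes (-6.10 ± 0.42). In the control spleens it was at 0.307, 0.619 and 0.632 RPKM, above the treated spleens and far below the lymph nodes. The scavenger receptor Marco differed by -3.63, the phosphatidylserine receptor Timd4 by -3.77 and Lyve1 by -3.18. In all, 4 of 8 receptors were called, or 50%, against 1.84% of all kept genes. Ccl22, a chemokine of mature dendritic cells, was at 0.379, 0.441 and 0.570 RPKM in the spleens and at 23.5, 60.0, 81.9 and 101 RPKM in the lymph nodes (-5.94 ± 0.47). Fscn1, the fascin of mature dendritic cells, was at 11.6, 7.97 and 6.10 RPKM in the spleens and at 76.8, 148, 147 and 137 RPKM in the lymph nodes (-3.81 ± 0.34). Both were called, which requires that the organs do not overlap, and lymph node replicate 1 was the lowest of its organ for both. Apol7c (-3.72) and Cacnb3 (-3.71) were the other genes called of the 14 in the list of migratory dendritic and Langerhans cells, all of which had the higher mean in lymph node.

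Genes of fat were high in the lymph node libraries too, with 7 of 10 kept adipocyte genes called, or 70%, against 1.84% of all kept genes. Cfd, the complement factor known as adipsin, was at 0.0532, 0.144 and 0.0746 RPKM in the spleens and at 139, 264, 82.1 and 306 RPKM in the lymph nodes (-8.21 ± 0.44). Adipoq, the adipocyte hormone adiponectin, was at 0.0796, 0.130 and 0.0186 RPKM in the spleens and at 14.7, 22.4, 9.26 and 27.9 RPKM in the lymph nodes (-4.94 ± 0.35). Both were lowest in lymph node replicate 3 and highest in replicate 4. Fabp4, a fatty acid carrier of adipocytes, macrophages and endothelium, differed by -4.58, Cidec by -4.51 and Thrsp, a factor of fat synthesis, by -6.24. Of other tissues that lie near a node, the mammary milk protein Csn2 was listed at 0 in all 3 spleens and was at 0.212, 0.281, 0.0967 and 10.6 RPKM in the lymph nodes, and the keratin genes Krt8 and Krt19 differed by -3.57 and -4.55. The summed gland list was 12, 11.4 and 5.36 RPKM in the spleens and 46.0, 37.5, 46.1 and 77.7 RPKM in the lymph nodes. Both keratins are also in the mesothelium list, where they were the 2 called of 3 kept genes; its sum was 0.936 to 1.67 RPKM in the spleens and 15.7 to 27.1 RPKM in the lymph nodes, while the mesothelial marker Msln was at most 0.0123 RPKM in the spleens and 0.0317 RPKM in the lymph nodes. The skeletal muscle list had 3 kept genes, of which Des was called, too few to set against the share of all kept genes. It summed to 8.01 to 9.35 RPKM in the spleens and 27.8 to 31.4 RPKM in the lymph nodes. Its gene Acta1 was at most 0.258 RPKM in the spleens and 0.113 RPKM in the lymph nodes. The part of tissue attached to the nodes in the matrix and vessel differences was not tested. Csn2, Krt8, Krt19, Msln and Acta1 were chosen after their values were seen.

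**Figure D4:**
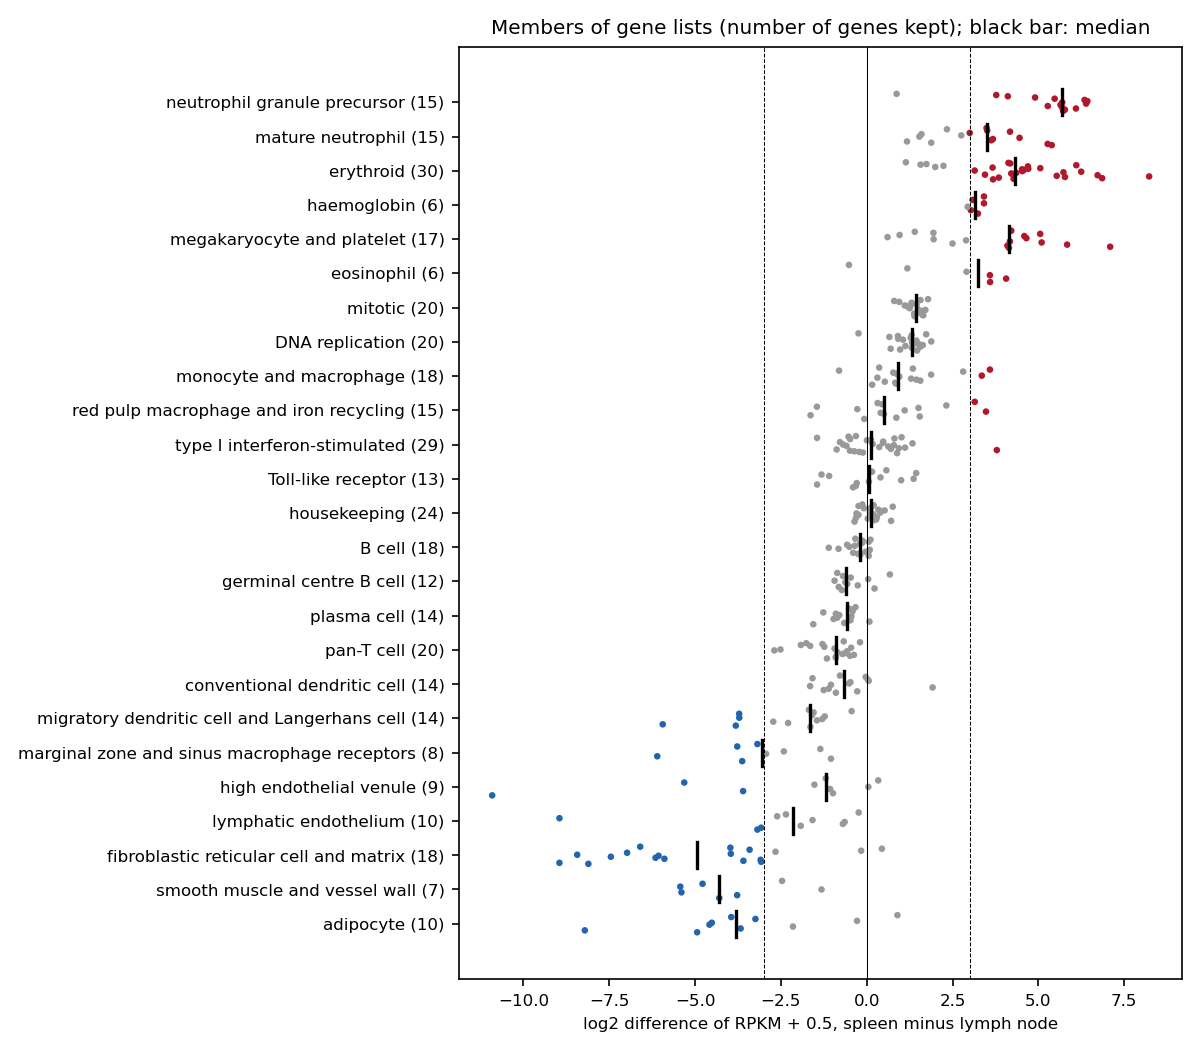
Difference of mean log2(RPKM + 0.5), spleen minus lymph node, for each kept gene of 25 lists; dashed lines mark 8-fold, red points are called higher in spleen, blue points higher in lymph node and black bars are medians. Most points of the neutrophil, red cell and platelet lists lie to the right and most of the matrix, vessel wall and adipocyte lists to the left; the pan-T genes lie below 0 within 8-fold, and the B cell and housekeeping medians are near 0.

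The markers of spleen stroma did not mark the spleen libraries. The patterning factors that define splenic mesenchyme were near 0: Tlx1 was at 0.0846, 0 and 0.283 RPKM in the spleens and at 0.0479, 0.0226, 0.0454 and 0.0328 RPKM in the lymph nodes, and the groups overlapped. Nkx2-5 was at most 0.105 RPKM in the spleens and 0.0478 RPKM in the lymph nodes, and Wt1 at most 0.0890 RPKM in the spleens and 0.0239 RPKM in the lymph nodes. Nkx2-3 did not overlap between the organs but was under 1 RPKM in every library. It was at 0.279, 0.656 and 0.749 RPKM in the spleens and at 0.0230, 0, 0.0349 and 0.0316 RPKM in the lymph nodes. Nr2f2, a factor of veins and stroma that was in the same list, was at 0.127, 0.0890 and 0.314 RPKM in the spleens and at 3.46, 4.62, 4.65 and 4.63 RPKM in the lymph nodes (-2.84 ± 0.17). The white pulp of a spleen has reticular cells of its own that make Ccl21a, Ccl19 and collagen, yet these transcripts were near 0 in the control spleens as well, where Ccl19 was at 0.150, 0.0698 and 0.132 RPKM and Col3a1 at 0.0156, 0.0181 and 0.0228 RPKM. The summed matrix list was 15.6, 44.9 and 42.9 RPKM in the imiquimod spleens, 4.98, 6.63 and 5.79 RPKM in the control spleens and 956, 1012, 1321 and 1352 RPKM in the lymph nodes. How much of the organ's stroma entered the spleen RNA was not tested, and it cannot be told apart from the organ itself.

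Genes of lymphocytes differed by less than 8-fold, with 0 called in the lists of T, B, germinal centre, plasma and natural killer cells. All 20 pan-T genes had the higher mean in lymph node, with a median of -0.90. Their summed level was 720, 697 and 569 RPKM in the imiquimod spleens and 1025, 1381, 1303 and 1540 RPKM in the lymph nodes. In the control spleens it was 1170, 1193 and 1242 RPKM, within the range of the lymph nodes. Cd3e was at 42.4, 41.2 and 35.0 RPKM in the spleens and at 64.3, 82.2, 79.1 and 71.4 RPKM in the lymph nodes, and Cd8a stood furthest apart, at 3.59, 6.0 and 5.51 RPKM in the spleens and at 28.2, 27.8, 37.3 and 48.5 RPKM in the lymph nodes (-2.69 ± 0.28). Neither overlapped. The B cell list had a median of -0.19. Its sum was 2159, 1391 and 1407 RPKM in the imiquimod spleens and 1715, 1853, 2201 and 1675 RPKM in the lymph nodes. The control spleens stood above both, at 4542, 4023 and 4156 RPKM. For the plasma cell list they stood below both, at 405, 381 and 350 RPKM, against 2020, 1714 and 797 RPKM in the imiquimod spleens and more in every lymph node. The plasma cell list had a median of -0.59, with Jchain, the joining chain of secreted IgM and IgA, at 1129, 968 and 352 RPKM in the spleens and at 2562, 1761, 2451 and 1897 RPKM in the lymph nodes (-1.56 ± 0.54). These genes were chosen after their values were seen.

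Interferon and Toll-like receptor genes did not separate the organs as groups. The median was 0.12 over 29 interferon-stimulated genes, and -0.28 without spleen replicate 2. It was 0.06 over 13 Toll-like receptor genes, with a negative sign under each scaling tried. Rsad2, an antiviral enzyme, was the 1 interferon-stimulated gene called of 29, or 3.45%, against 1.15% of all kept genes. It was at 7.61, 20.9 and 31.5 RPKM in the spleens and at 1.05, 0.902, 0.663 and 0.559 RPKM in the lymph nodes (3.79 ± 0.60). Tlr7, the receptor for imiquimod, was at 7.30, 9.10 and 7.66 RPKM in the spleens and at 3.98, 3.50, 3.73 and 3.74 RPKM in the lymph nodes (1.0 ± 0.10). It did not overlap between the organs, and the difference was far below the rule. The share of all kept genes without overlap was not counted, so that this cannot be read as particular to Tlr7. Housekeeping genes had a median of 0.13, and of -0.09 after quantile normalization. Rsad2 and Tlr7 were chosen after their values were seen.

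The Pad2-/- libraries, which come from the same runs but share no library with the WT ones, gave a second reading of the organs that does not separate organ from run either. By the same rule 113 genes were higher in Pad2-/- spleen, 0.931% of the 12142 kept there, and 189 were higher in Pad2-/- lymph node, 1.56%. All 141 genes called in WT spleen and all 226 called in WT lymph node had the same sign in Pad2-/-. Of these, 93 of 141 (66.0%) and 172 of 226 (76.1%) were also called in Pad2-/-, which are 82.3% of the Pad2-/- spleen calls and 91.0% of its lymph node calls. The share of all kept genes with the same sign in both genotypes was not counted. The median difference of the 141 genes was 3.63 in Pad2-/- and 3.84 in WT, and that of the 226 genes was -3.62 in Pad2-/- and -3.75 in WT. Both sets were chosen for their difference in the WT libraries, so that smaller medians in Pad2-/- are partly built in. The neutrophil lists differed less between the Pad2-/- organs: the granule precursor median was 3.07 in Pad2-/- and 5.69 in WT, and the mature neutrophil median was 1.54 in Pad2-/- and 3.49 in WT. S100a8 was at 6073, 8825 and 6409 RPKM in the Pad2-/- spleens and at 1669, 340, 2481 and 2408 RPKM in the Pad2-/- lymph nodes, so that all 4 of these nodes stood above every WT lymph node. The haemoglobin median was 5.88 in Pad2-/- and 3.16 in WT. Hbb-b1 was at 26639, 2162 and 22138 RPKM in the Pad2-/- spleens, with replicate 2 far below the others, and at 98.1, 209, 581 and 304 RPKM in the Pad2-/- lymph nodes. The difference between genotypes was not tested here. Glycam1 was at 0, 0 and 0.0409 RPKM in the Pad2-/- spleens and at 1703, 2120, 700 and 648 RPKM in the Pad2-/- lymph nodes, a separation like that in WT.

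**Figure D5:**
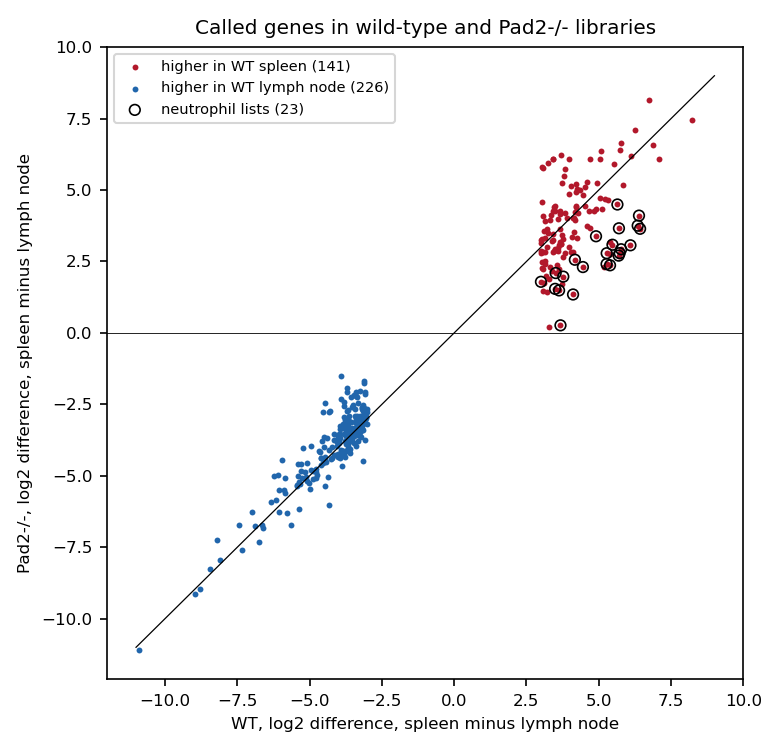
Difference of mean log2(RPKM + 0.5), spleen minus lymph node, in Pad2-/- (vertical axis) and in wild type (horizontal axis) for the 141 genes called higher in WT spleen (red) and the 226 called higher in WT lymph node (blue); the line marks equal differences and open circles mark the 23 called genes of the neutrophil lists. All points keep their sign, and the circled neutrophil genes lie below the line. The genes were chosen for their WT difference, so that a smaller difference in Pad2-/- is partly built in.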

How the data were processed

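Poly(A)-enriched RNA of frozen organs was sequenced on an Illumina instrument, per the labels' protocols. Tools listed in the submitters' processing notes are TopHat2 2.1.0 and bcl2fastq 1.17.1, with mm10 as the build. For the tool and annotation behind the gene values, the name is not given in the sources used here. RPKM values were deposited by the authors in 1 table for each organ, normalized separately. In each library 307 to 405 values above 0 were vanishingly small, as estimated abundances do, so counts and depth could not be recovered and no counting interval is given.

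Groups follow the genotype, agent and tissue labels. All calculations used Python 3.11.15 with pandas 2.3.3 and numpy 2.4.6. Values were compared as log2(RPKM + 0.5), which understates the difference of low genes, without any test or p-value, for genes at 1 RPKM or more in at least 3 of 7 libraries. The steps were tested on simulated data.

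Named genes are the 15 largest differences each way at 5 RPKM or more in the higher organ (leaving out sex-linked genes, receptor segments and unnamed clones), up to 4 members of each list with at least 3 called members, the spleen patterning and high endothelial venule lists, Padi2, Padi4 and the haemoglobin genes. A gene that this rule names is not reported here. In all, 51 lists held 651 genes, of which 643 are in the tables. The libraries, lists and rules were chosen with earlier results of these data known. Pad4-/- libraries were left out because lymph node libraries labelled so held Padi4. Positions and promoters are from RefSeq (GRCm38.p6, the assembly of mm10), matched by symbol. Pseudocount, filter, scaling, fold and left-out libraries were varied.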

Additional observations from a re-analysis of the deposited data

Results flagged for a closer look

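Of 138 sets of 4 lymph node values examined, 7 had 1 library set apart from the other 3 by a gap that takes up most of their range; chance alone flags about 1 in 20 such sets, and groups of 3 spleens were not examined. Lymph node replicate 1 stood below the others for Chst4 at 5.19 RPKM, for Fscn1 at 76.8 RPKM and for Nr2f2 at 3.46 RPKM. Lymph node replicate 3 stood above the others for Mcpt8 at 0.726 RPKM, for Prtn3 at 4.26 RPKM and for the summed granule precursor list at 205 RPKM, the last of which includes Prtn3. Lymph node replicate 4 stood above the others for the summed complement and lysosomal list at 2178 RPKM. In each of these cases all spleen values lay on the far side of all lymph node values, and the differences of the 5 genes kept their sign in every alternative run. For Chst4, Fscn1, Mcpt8 and Prtn3, which were called, the rule requires that the organs do not overlap.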

How the results depend on the processing

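No called gene among those named reversed direction under any alternative; Gcnt1, which was not called, ranged from -0.07 to 0.15. Medians of several lists near 0 or with few kept members changed sign under 1 or more alternatives, among them the interferon-stimulated, Toll-like receptor, housekeeping and marginal zone B cell lists, and those of the spleen patterning factors and peptidylarginine deiminases without a filter on low values. The number of genes higher in lymph node was 505 with a pseudocount of 0.1 and 118 with a pseudocount of 1, since many are near 0 in spleen; the number higher in spleen was 194 and 111. At 4-fold the numbers were 278 in spleen and 513 in lymph node. The filters, scalings and the fold without the condition on overlap gave 117 to 143 in spleen and 185 to 236 in lymph node. Leaving out 1 library gave 112 to 167 in spleen and 214 to 241 in lymph node. With the filter reapplied to the 6 libraries left, chosen after seeing the data, the spleen number was 92, 75 and 63 without spleen replicates 1, 2 and 3, because a gene low in lymph node then cannot reach 1 RPKM in 3 libraries. The median over kept genes was 0.05, and -0.06 and -0.07 after scaling to the same median and leaving out haemoglobin. Apol7c, Chst4, Lyve1, Pdpn and Tpsb2 were within 8-fold at a pseudocount of 1. No paired analysis was possible because no test of the organs was made and the labels do not say which animal each library comes from. Organ, run and table cannot be told apart, depth is unknown, and 3 and 4 libraries limit the precision.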
